A study of Mus musculus with 28 samples.

Results

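Gene expression was compared between germinal center B cells of mice labelled as homozygous Tbl1xr1 knockouts (KO) and of their Cre controls, in 10 of the 28 RNA-seq libraries of the study. The 10 libraries were taken by their titles, which name 5 KO and 5 Cre control replicates. Per the labels' genotypes, KO libraries were Cg1Cre(+/-) with Tbl1xr1 KO/KO and Cre control libraries were Cg1Cre(+/-) with Tbl1xr1 WT/WT, so that both groups carried the same Cre allele. Cg1Cre drives Cre recombinase from the immunoglobulin heavy constant gamma 1 locus, which is transcribed in B cells that respond to antigen, so that deletion is limited to cells that have begun this response. The sources used here do not give the age of the mice, the immunization or the cell sort, and the labels do not tie libraries to animals. The p-values therefore cover only variation among these libraries, part of which may be technical. In bulk RNA, fewer cells of a type and less RNA per cell cannot be told apart.

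TBL1XR1 belongs to the SMRT/NCOR corepressor complex, where its WD40 repeats bind histone tails. The complex brings the histone deacetylase HDAC3 to repressors bound at their target genes. In germinal center B cells the best known of these repressors is BCL6, which holds back genes of B cell activation, migration and exit from the germinal center. Unliganded nuclear receptors, such as the liver X receptors (LXR) that switch on sterol export and the retinoic acid receptors, use the same complex. Germinal centers are the sites in lymphoid organs where B cells mutate their antibody genes, are selected, and leave as memory B cells or plasma cells. The title of the study links TBL1XR1 mutations to the memory fate.

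Levels are in CPM, counts per 1 M reads, rescaled to the same sum over the listed genes in every library. Reads on listed genes came to 27.1 to 34.3 M in KO and 30.0 to 32.0 M in Cre control libraries, so that 3 reads were worth 0.0874 to 0.111 CPM. One library stood apart. In KO replicate 3, 64.4% of the reads in the authors' denominator fell on listed genes, against 82.6% to 84.6% in the other KO libraries and 80.8% to 83.9% in the Cre controls. Nuclear noncoding transcripts were high in the same library: Malat1 was at 2535 CPM, against 31.1 to 181 in the other KO libraries and 97.0 to 339 in the controls, and Kcnq1ot1 was at 367 CPM, against at most 20.3 and 36.2. No difference between the groups passed the test in these measures (exact permutation test, two-sided, adjusted p = 0.857 for each of 4 measures). Results are therefore given with and without KO replicate 3. Xist or Y-linked transcripts showed 2 KO libraries (replicates 2 and 3) and 4 control libraries (all but replicate 4) with the female pattern and the others with the male pattern. Transcripts of germinal center B cells were abundant in all 10 libraries: Bcl6 was at 381 to 505 CPM, S1pr2 at 531 to 692 and Fas at 82.7 to 109. Cd79a, a transcript of B cells in general, was at 1128 to 1601 CPM.

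**Figure D1:**
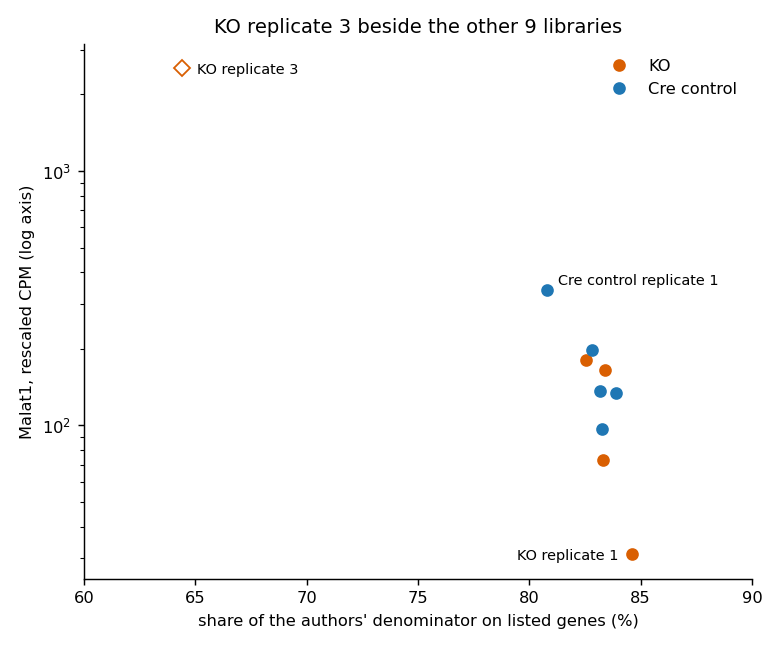
Share of the authors' denominator that fell on listed genes (horizontal axis, percent) against Malat1 level (vertical axis, rescaled CPM, log axis), 1 point per library. KO replicate 3, the open diamond, is at 64.4% and 2535 CPM, and the other 9 libraries lie between 80.8% and 84.6%.

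The transcript of the targeted gene was not lower in the libraries labelled KO. Tbl1xr1 (chromosome 3, 22076253 to 22216594 in GRCm38) was at 112, 126, 198, 108 and 113 CPM in KO replicates 1 to 5 and at 99.7, 114, 102, 106 and 97.0 CPM in Cre control replicates 1 to 5. The groups overlapped, and the 198 of KO replicate 3 lay far above the rest. The log2 fold change was 0.30 ± 0.14 (SE), with an adjusted p of 0.447, and without KO replicate 3 it was 0.14, with an adjusted p of 0.237. The sources used here do not say which exons the knockout removes, and a value for the whole gene cannot show the loss of a single exon. The direction of every change below therefore rests on the genotype labels.

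Partners of TBL1XR1 were measured next, and 0 of the 8 genes listed for the SMRT/NCOR complex passed the test with limma (1 at an unadjusted p below 0.05, and 0 with edgeR or DESeq2). The paralog Tbl1x, whose protein takes the same place in the complex, was at 64.2 to 84.8 CPM in KO and 59.8 to 68.5 in controls (log2 fold change 0.24 ± 0.08, adjusted p = 0.177). Ncor1 was at 121 to 283 CPM in KO and 148 to 165 in controls, with its highest value in KO replicate 3. Hdac3, the deacetylase, differed by a log2 fold change of 0.02 ± 0.06, and Gps2, a further subunit, by -0.01 ± 0.06. Bcl6 itself was at 443, 488, 505, 405 and 437 CPM in KO against 381, 418, 438, 430 and 443 in controls (log2 fold change 0.11 ± 0.07, adjusted p = 0.642). Both groups overlapped for Bcl6. Among 18 other corepressors of BCL6, 0 passed with limma, edgeR or DESeq2 (2 at an unadjusted p below 0.05).

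Across all genes, 239 of 10691 tested were called at an adjusted p below 0.05 (2.24%). Of these, 116 were higher (1.09% of genes tested) and 123 lower (1.15%) in KO, and the median log2 fold change was 0.55 among the former and -0.48 among the latter. Over all genes tested the median was -0.00. In all, 14 called genes passed a 2-fold change on the log2(CPM + 1) scale, 6 higher and 8 lower. The 5 KO values did not overlap the 5 control values in 230 of the 239 called genes, against 5.2% of all genes tested. The calls were made on the same values, so this count adds no support to them. On CPM as the authors deposited them, without rescaling, 146 genes were called, 50 higher and 96 lower. Without KO replicate 3 the count was 495 of 10647 (4.65%), 230 higher (2.16%) and 265 lower (2.49%). Of the 239 genes, 238 were also called without that library and the other, Gm13546, did not pass the filter on low values there, and the 257 further genes all had the same sign with all 10 libraries. With a term for the female or male pattern 281 genes were called, 201 of them among the 239. Leaving out Cre control replicate 2, Cre control replicate 3 or KO replicate 2 reduced the count to 150, 156 and 159.

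**Figure D2:**
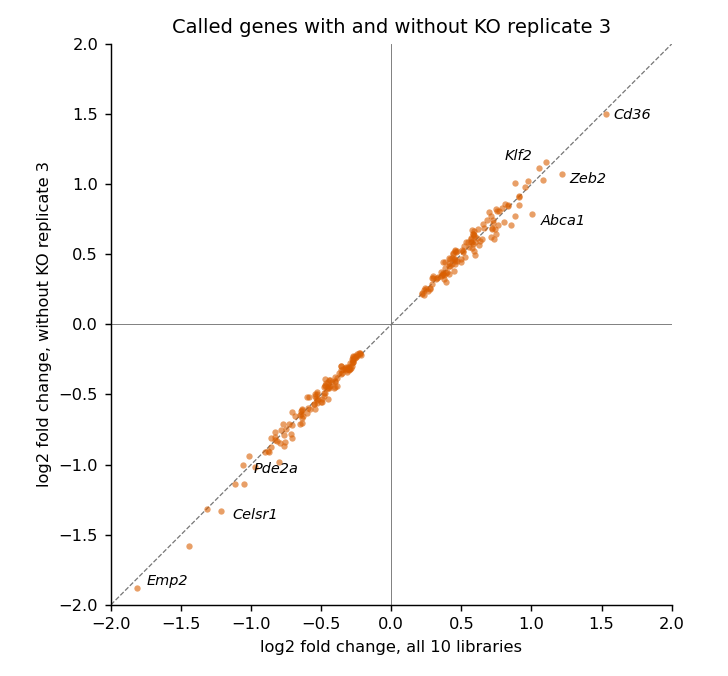
Log2 fold change, KO against Cre control, with all 10 libraries (horizontal axis) and without KO replicate 3 (vertical axis) for the 238 of 239 called genes tested in both, 1 point per gene. They lie near the dashed line of equality and none changes sign; Abca1 lies furthest below it among the named rises.

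The 5 largest rises at a mean of at least 5 CPM were Cd36, Zeb2, St3gal6, Klf2 and Abca1, which have different functions and are described with their lists. Cd36 (chromosome 5, 17781690 to 17888959), a scavenger receptor that takes up long-chain fatty acids and oxidized lipoproteins, was at 34.3, 43.1, 41.6, 45 and 26.7 CPM in KO and at 15.1, 14.2, 11.8, 8.83 and 12.5 CPM in Cre controls. All 5 KO values lay above all 5 control values. The log2 fold change was 1.53 ± 0.16 (adjusted p = 0.000670; 1.5 without KO replicate 3). Mgll, the lipase that releases fatty acids from monoacylglycerols, was at 32.7, 34.7, 28.6, 27.8 and 29.8 CPM in KO and at 17.6, 12.6, 17.4, 15.9 and 13.8 in controls, again without overlap. Its log2 fold change was 0.95 ± 0.10 (adjusted p = 0.000673). Fads2, a fatty acid desaturase, fell (log2 fold change -0.47 ± 0.10, adjusted p = 0.0279), and this call was lost in 7 of the 10 fits that each leave out 1 library, with an adjusted p of up to 0.0806. Of 24 tested genes of fatty acid handling, these 3 were called (12.5%, against 2.24% of all genes tested), and the median log2 fold change of the list was -0.02.

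Among 18 tested LXR targets and sterol efflux genes, 4 rose and 0 fell, with a median log2 fold change of 0.12. The share called was 22.2%, against 2.24% of all genes tested, in a list chosen with earlier results known. Abcg1 and Abca1 encode the transporters that pass cellular cholesterol to lipoproteins. Abcg1 (chromosome 17, 31057694 to 31117984) was at 21.2, 19.4, 18.1, 18.1 and 15.3 CPM in KO and at 8.66, 8.38, 8.81, 9.84 and 11 CPM in controls. The lowest KO library was above the highest control, and the log2 fold change was 0.91 ± 0.10 (adjusted p = 0.000695). Abca1 (chromosome 4, 53030789 to 53159988) was at 21.5, 30.5, 45.8, 16.8 and 18.6 CPM in KO and at 10.6, 13.4, 11.4, 12.5 and 11.8 CPM in controls. Its groups did not overlap either, but KO replicate 3 was the highest and the KO values were widely spread. The log2 fold change was 1.0 ± 0.22 (adjusted p = 0.0358), and 0.79 (adjusted p = 0.00689) without KO replicate 3. The call for Abca1 was lost without KO replicate 1 or 2 or any 1 of the 5 control libraries, with an adjusted p of up to 0.102. Scd2, a stearoyl-CoA desaturase, rose from 258 to 315 CPM in controls to 365 to 475 CPM in KO (log2 fold change 0.53 ± 0.08, adjusted p = 0.00594). Pltp, which transfers phospholipids between lipoproteins, was near the threshold (0.45 ± 0.11, adjusted p = 0.0496) and was called in 1 of the 10 fits that leave out 1 library. Accordingly the count of called genes in the list ran from 2 to 6 over those fits. The receptors themselves did not pass the test: Nr1h2 (LXR beta) was at 108 to 132 CPM in KO and 108 to 129 in controls, and Nr1h3 (LXR alpha) at 2.54 to 5.48 and 2.31 to 4.16 CPM. Of 22 cholesterol synthesis and uptake genes 0 were called by limma, edgeR or DESeq2 (0 at an unadjusted p below 0.05).

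The promoter of Abca1 is shown because it carries the textbook form of an LXR element and belongs to a gene of this group that rose. The sequence runs from 250 bases before to 50 bases after a transcript start listed by RefSeq (GRCm38.p6, chr4:53159846-53160145, minus strand, 5′ to 3′), and the capitals mark the match to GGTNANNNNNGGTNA, a direct repeat of nuclear receptor half-sites searched on both strands and found here on the reverse strand at position -67 from the start.
Abca1: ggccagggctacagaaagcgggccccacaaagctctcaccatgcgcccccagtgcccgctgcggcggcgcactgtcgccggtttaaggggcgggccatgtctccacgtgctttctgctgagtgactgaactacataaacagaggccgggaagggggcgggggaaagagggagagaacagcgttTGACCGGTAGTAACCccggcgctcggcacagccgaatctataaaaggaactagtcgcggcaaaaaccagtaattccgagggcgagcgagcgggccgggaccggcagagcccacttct
Of 32851 RefSeq mouse promoters of this length, 236 (0.718%) hold such a match. Counted by gene, 50 of 8590 genes tested (0.582%) held one. Among called genes with a promoter in the table, 1 of 81 higher genes (Abca1) and 1 of 100 lower genes held one. Of the other called genes of the LXR list, Pltp held no match, and Abcg1 and Scd2 had no promoter there. A palindrome of the BCL6 type, TTCCNNGAA, occurred in the promoters of 5 of 81 higher genes (6.17%) and 3 of 100 lower genes, against 5.46% of all genes tested. A match is a description of the letters in this window only.

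Some genes that keep B cells recirculating, or bring them to the follicle, were among the rises. Klf2 (chromosome 8, 72319062 to 72321654), a transcription factor of quiescent lymphocytes that switches on homing receptors, was at 55.3, 67.5, 54.5, 86.3 and 62.3 CPM in KO and at 27.4, 28, 33.8, 33.1 and 30.3 CPM in controls. The KO values were all higher, with the highest in replicate 4, and the log2 fold change was 1.05 ± 0.12 (adjusted p = 0.000832). S1pr1, the receptor that follows sphingosine 1-phosphate out of lymphoid tissue and a target of KLF2, was at 39.8, 41.5, 44.4, 42.4 and 36.5 CPM in KO and at 22.4, 27.6, 23.6, 21.0 and 28.7 CPM in controls. Its groups did not overlap (log2 fold change 0.72 ± 0.09, adjusted p = 0.00175). Gpr183 (EBI2), an oxysterol receptor that draws B cells to the outer follicle and is repressed by BCL6, was at 21.4, 23.7, 31.5, 25.7 and 20.2 CPM against 16.0, 14.5, 12.2, 13.7 and 15.8 CPM, again without overlap (log2 fold change 0.71 ± 0.12, adjusted p = 0.00728). These were the 2 called genes among 26 migration and positioning receptors, 7.69% against 2.24% of all genes tested. Log2 fold changes in the list ran from -0.46 to 0.73 (median 0.18), and without KO replicate 3, 4 rose and 0 fell. The follicular and zonal chemokine receptors were not called: Cxcr5 was at 415 to 496 CPM in KO and 460 to 497 in controls, and Cxcr4 at 327 to 396 and 362 to 397. Ccr7, which guides cells toward T cell zones, did not pass (0.35 ± 0.10, adjusted p = 0.121).

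Of 24 tested memory B cell genes 7 rose and 1 fell, with a median log2 fold change of 0.22. Called genes were 33.3% of those tested in the list, against 2.24% of all genes tested, and this list too was chosen with earlier results known. Zeb2 (chromosome 2, 44983512 to 45117442), a zinc finger repressor of the memory list and of the atypical memory list, was at 13.7, 15.6, 24.3, 15.6 and 12 CPM in KO and at 7.19, 6.96, 5.59, 5.02 and 6.49 CPM in controls. The KO values were all above the controls and that of replicate 3 was the highest. The log2 fold change of Zeb2 was 1.22 ± 0.16 (adjusted p = 0.00209), and 1.07 without KO replicate 3. Pdcd1lg2 (PD-L2), a surface ligand that marks memory B cell subsets, rose from 6.07 to 8.65 CPM in controls to 10.7 to 13.2 CPM in KO (0.65 ± 0.10, adjusted p = 0.00399). Cd38, an ectoenzyme that germinal center B cells of the mouse lower and memory cells carry, rose from 40.3 to 52.7 CPM to 59.2 to 85.2 CPM (0.55 ± 0.10, adjusted p = 0.0146). The other rises were Klf2, S1pr1, Gpr183 and Hhex, a homeobox factor needed for memory B cells, whose call (0.46 ± 0.11, adjusted p = 0.0483) held in 1 of the 10 fits that leave out 1 library. Nt5e (CD73), another memory marker, fell (-0.45 ± 0.10, adjusted p = 0.0350), and this call was lost in 8 of those fits. Between 6 and 9 genes of the list were called over the 10 fits. Bcl2, a survival gene repressed by BCL6, was at 4.66, 6.36, 7.28, 5.21 and 4.13 CPM in KO and at 3.60, 3.57, 2.66, 2.31 and 3.68 CPM in controls. Its groups did not overlap, and its adjusted p was 0.0535 (log2 fold change 0.64 ± 0.15), or 0.0405 without KO replicate 3. Of 26 BCL6 repression targets S1pr1 and Gpr183 were the 2 called (7.69%, against 2.24% of all genes tested), and the list's median was 0.11. Without KO replicate 3, 4 genes of that list rose, Bcl2 among them.

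Naive and follicular B cell genes rose in larger number than genes of any other list examined: 8 of 21 tested were higher and 0 lower, with a median log2 fold change of 0.35. Called genes were 38.1% of the list, against 2.24% of all genes tested, and the lists were chosen with earlier results known. All 8 are on other lists too. Klf2, S1pr1 and Cd38 are also on the memory list, and Gimap3 and Gimap6 on the list of GIMAP genes. Bank1 is on the list of B cell receptor signalling, Fcer2a on that of Fc receptors and Foxp1 on that of KLF factors. Fcer2a (CD23), the low-affinity IgE receptor of follicular B cells, was at 282, 272, 290, 296 and 267 CPM in KO and at 222, 221, 210, 201 and 249 CPM in controls, without overlap (0.35 ± 0.06, adjusted p = 0.00981). Bank1, an adaptor of B cell receptor signalling, was at 151, 174, 220, 163 and 139 CPM against 123, 117, 105, 102 and 107 (0.59 ± 0.11, adjusted p = 0.0132). Foxp1, a transcription factor of mature naive B cells, had a log2 fold change of 0.39 ± 0.09 (adjusted p = 0.0390), and its call was lost in 7 of the 10 fits that leave out 1 library. The list's count ran from 6 to 9 over those fits. GIMAP genes, which encode small GTPases of lymphocyte survival, included 3 rises among 8 tested, with a median of 0.42. Their share of called genes (37.5%) was close to that of the naive and follicular list. Gimap3 was at 98.2 to 120 CPM in KO and 60.3 to 89.8 in controls (0.58 ± 0.10, adjusted p = 0.00686). Gimap7 (0.59 ± 0.12, adjusted p = 0.0208) and Gimap6 (0.47 ± 0.10, adjusted p = 0.0249) kept their calls in 4 and 3 of those fits. These 3 genes lie close together on chromosome 6 (48701583 to 48770851), and whether their rises are separate was not tested.

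T cells express GIMAP genes, Klf2 and S1pr1 as well, so T cell markers were read beside them. Cd3g was at 0.121 to 0.159 CPM in KO and at 0.0652 to 0.549 CPM in controls. The sum of the T cell marker list was 200 to 353 CPM in KO and 184 to 230 in controls, and nearly all of it was Cd2, which B cells of the mouse also express. Cd2 was at 190 to 341 CPM in KO and 176 to 218 in controls (0.45 ± 0.13, adjusted p = 0.121), and was called without KO replicate 3 (0.56, adjusted p = 0.00351). No other T cell marker among the 5 tested was called in either fit. The part of naive, follicular or other cells in these rises was not tested.

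**Figure D3:**
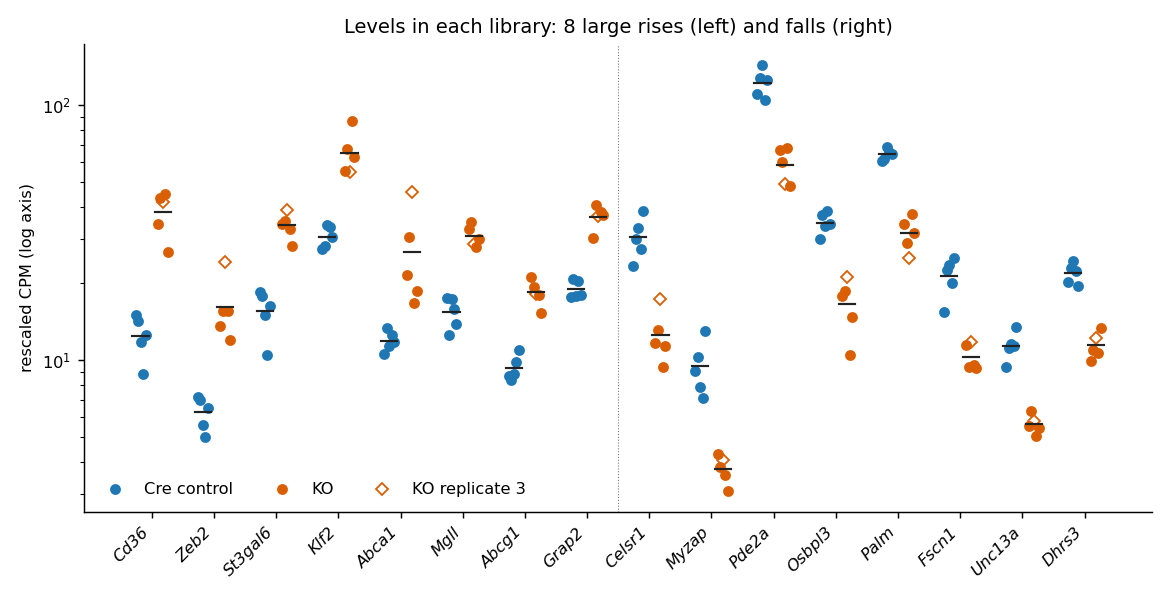
Rescaled CPM (vertical axis, log axis) in each library for 8 genes that rose and 8 that fell, taken by size of the log2 fold change at a mean of at least 5 CPM; points are libraries, the open diamond is KO replicate 3 and bars are group means. The KO and Cre control points do not overlap for any of the 16 genes, and among the rises KO replicate 3 is the highest KO value for Zeb2, St3gal6 and Abca1.

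Signalling and surface genes supplied further rises. Grap2 (GADS), an adaptor that links SLP-76 to receptors, was at 30.3, 40.7, 36.8, 38.0 and 37.1 CPM in KO and at 17.7, 20.9, 17.8, 20.4 and 18 CPM in controls. The groups were far apart relative to their spread (0.91 ± 0.08, adjusted p = 0.000427). Sla, an adaptor that lowers antigen receptor levels, was at 78.8 to 93.2 CPM in KO and 46.2 to 53.6 in controls (0.79 ± 0.07, adjusted p = 0.000273). Of 29 genes of B cell receptor signalling Grap2, Bank1 and Themis2 rose and 0 fell (median 0.02). They were 10.3% of the list, against 2.24% of all genes tested. The call for Themis2 (0.37 ± 0.08, adjusted p = 0.0322) was lost in 8 of the 10 fits that leave out 1 library. Without KO replicate 3, 6 genes of this list rose and 1 fell. Of 24 cytokine receptors tested 3 rose and 0 fell (median 0.10), and without KO replicate 3, 7 rose and 1 fell. With all libraries the share called was 12.5%, against 2.24% of all genes tested, in a list chosen with earlier results known. The 3 were both chains of the interleukin 10 receptor, Il10ra (0.42 ± 0.07, adjusted p = 0.00686) and Il10rb (0.59 ± 0.09, adjusted p = 0.00618), and the interferon receptor chain Ifnar2 (0.51 ± 0.07, adjusted p = 0.00255). Ifnar2 (91372783 to 91405589) and Il10rb (91406157 to 91425834) are neighbours on chromosome 16, and whether their rises are separate was not tested.

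Enzymes that build surface sugars were also among the larger rises. St3gal6 (chromosome 16, 58469742 to 58524260), a sialyltransferase, was at 34.3, 35.0, 38.8, 32.6 and 28 CPM in KO and at 18.5, 17.9, 15, 10.5 and 16.4 CPM in controls (1.08 ± 0.14, adjusted p = 0.00175). Cmah, which converts the sialic acid Neu5Ac to Neu5Gc and is known to be low in germinal center B cells of the mouse, was at 56.5, 58.5, 93.5, 54.5 and 53 CPM in KO and at 34.2, 36.7, 28.8, 34.5 and 34.7 CPM in controls. Neither gene overlapped between groups, and KO replicate 3 was the highest for both. For Cmah the log2 fold change was 0.85 ± 0.14 (adjusted p = 0.00686), and 0.71 without that library. In the list of 22 sialyl and glycosyl transferases, St3gal1 (0.28 ± 0.05, adjusted p = 0.0104) rose too and Gcnt3, which branches O-glycans, fell (-0.48 ± 0.10, adjusted p = 0.0249), with a list median of 0.09. The 4 calls were 18.2% of the list, against 2.24% of all genes tested. The call for Gcnt3 held in 3 of the 10 fits that leave out 1 library. Hbb-bh1, an embryonic beta-like globin gene, rose (0.88 ± 0.16, adjusted p = 0.0117), while Hba-a1 and Hba-a2 had no read in any library and the adult beta globin Beta-s was at 2.87 to 9.49 CPM in controls and 3.06 to 49.8 in KO. Some globin genes are near-identical copies, and the split of reads among those copies is uncertain.

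Germinal center genes moved in both directions. Of 22 tested, 2 rose and 2 fell, with a median log2 fold change of -0.17, and 16 had a negative value or 0. The share called was 18.2%, against 2.24% of all genes tested. Lmo2 (chromosome 2, 103957903 to 103981878), a transcriptional cofactor used as a germinal center marker, was at 135, 123, 119, 163 and 143 CPM in KO and at 77.9, 78.1, 75.3, 73.2 and 80.2 CPM in controls. It rose without overlap (0.81 ± 0.08, adjusted p = 0.000523). Gcet2 (Gcsam, HGAL), a germinal center protein that limits cell motility, was at 275, 224, 263, 242 and 248 CPM in KO and at 410, 399, 340, 398 and 396 CPM in controls. It fell, and Cre control replicate 3 was the lowest of the controls (-0.63 ± 0.07, adjusted p = 0.000695). Serpinb1a rose (0.58 ± 0.11, adjusted p = 0.0151; lost without Cre control replicate 2 or 3, up to 0.0513) and Gcnt3 fell. Without KO replicate 3, 2 genes of the list rose and 5 fell.

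Zone and plasma cell genes gave 2 or 3 calls a list, most of which were lost in fits that leave out 1 library. Of 15 dark zone genes 0 rose and 2 fell, Gcet2 and the cyclin Ccnd3 (-0.23 ± 0.05, adjusted p = 0.0309), and the call for Ccnd3 was lost in 9 of the 10 fits that leave out 1 library. Of 21 light zone genes Gpr183 and the nuclear receptor Nr4a1 rose and Traf1, an adaptor of TNF receptors, fell, and the calls of the latter pair held in 3 and 2 of those fits. Of 19 plasma cell genes 1 rose (Cd93, 0.63 ± 0.13, adjusted p = 0.0217) and 1 fell (Fam46c, -0.50 ± 0.11, adjusted p = 0.0303), calls that held in 5 and 3 of the fits. These counts stand against 2.24% of all genes tested. Without KO replicate 3, 4 dark zone genes fell, and 1 plasma cell gene rose and 3 fell, Xbp1 among them. Prdm1, the plasma cell master regulator BLIMP1, was at 5.91 to 11.5 CPM in KO and 4.10 to 8.84 in controls, and Irf4 at 54.1 to 71.0 and 53.4 to 66.6. Xbp1 was at 230 to 275 CPM in KO and at 274 to 311 CPM in controls (-0.26 ± 0.06, adjusted p = 0.0586, or 0.0367 without KO replicate 3). Bach2, which restrains plasma cell fate, was at 302 to 589 CPM in KO and 382 to 474 in controls. Of 30 B cell transcription factors 0 were called by limma (5 at an unadjusted p below 0.05, 0 with edgeR and 1 with DESeq2).

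The 5 largest falls at a mean of at least 5 CPM were Celsr1, Myzap, Pde2a, Osbpl3 and Palm, which have different functions. Emp2, a tetraspan membrane protein of lower level singled out after its values were seen, had the largest fall of all called genes, at 1.34, 0.560, 1.52, 1.76 and 0.636 CPM in KO and at 6.29, 6.07, 6.66, 4.73 and 8.81 CPM in controls. Every KO value was below every control value (-1.81 ± 0.19, adjusted p = 0.000670; -1.88 without KO replicate 3). Celsr1 (chromosome 15, 85898758 to 86034223), a seven-pass cadherin of planar cell polarity, was at 11.7, 13.1, 17.4, 9.39 and 11.3 CPM in KO and at 23.3, 30.0, 33.1, 27.2 and 38.4 CPM in controls. It fell by 1.22 on the log2 scale (SE 0.16, adjusted p = 0.00183). Celsr1 and Sema4b, a semaphorin that rose (0.46 ± 0.09, adjusted p = 0.0167; lost without Cre control replicate 2 or 3, up to 0.0530), were the 2 called among 11 cadherins and contact cues. This was 18.2% of the list, against 2.24% of all genes tested.

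Among 32 actin and cell shape genes 1 rose and 5 fell (median -0.04), and without KO replicate 3, 3 rose and 6 fell. The share called with all libraries was 18.8%, against 2.24% of all genes tested. The list was chosen with earlier results of these data known, so this share is a description and not a test. Palm (chromosome 10, 79793572 to 79820915), a lipid-anchored protein of membrane shape, was at 34.3, 28.8, 25.1, 37.3 and 31.6 CPM in KO and at 60.5, 61.3, 68.7, 65.5 and 64.3 CPM in controls. The control values were tight and all above the KO values (-1.01 ± 0.09, adjusted p = 0.000427). Fscn1, which bundles actin filaments, was at 11.5, 9.43, 11.8, 9.54 and 9.34 CPM in KO and at 15.4, 22.6, 23.6, 20.1 and 25.1 CPM in controls (-0.97 ± 0.12, adjusted p = 0.00175). Myzap, a junction protein, fell from 7.14 to 13 CPM in controls to 3.08 to 4.29 CPM in KO (-1.12 ± 0.14, adjusted p = 0.00175). The other falls were Coro2a (-0.44 ± 0.07, adjusted p = 0.00888) and Tagln2 (-0.26 ± 0.04, adjusted p = 0.00948). Flna, an actin crosslinker, was the rise (0.29 ± 0.06, adjusted p = 0.0186), and its call was lost without KO replicate 1, KO replicate 2 or Cre control replicate 2, with an adjusted p of up to 0.0659. Integrins split as well, with Itgb7, which pairs with alpha 4 for gut homing, higher (0.57 ± 0.08, adjusted p = 0.00209) and Itgb2, the beta chain of LFA-1, lower (-0.28 ± 0.05, adjusted p = 0.0167; lost without KO replicate 2 or Cre control replicate 4 or 5, up to 0.0571) among 20 tested. The share called was 10%, against 2.24% of all genes tested.

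Several falls lay outside these lists or were the only falls in theirs. Pde2a (chromosome 7, 101421691 to 101512829), a phosphodiesterase that breaks down cAMP and cGMP, was at 66.8, 59.8, 49.0, 68.0 and 48.3 CPM in KO and at 110, 127, 143, 105 and 126 CPM in controls. No KO library reached the lowest control (-1.06 ± 0.12, adjusted p = 0.000695), and Pde2a was the 1 gene called among 13 cyclic nucleotide enzymes (7.69%, against 2.24% of all genes tested). Osbpl3, an oxysterol-binding protein homolog, fell (-1.05 ± 0.15, adjusted p = 0.00374), as did Dhrs3, which reduces retinal and is a retinoic acid target (-0.88 ± 0.09, adjusted p = 0.000670). Dhrs3 and the rise of Nr4a1 (0.32 ± 0.07, adjusted p = 0.0355) were the calls among 10 retinoid and nuclear receptor genes (20%, against 2.24% of all genes tested). Plin2, the coat protein of lipid droplets, fell by 0.73 on the log2 scale (SE 0.09, adjusted p = 0.00184). Anxa2, an abundant membrane-binding protein, went from 645 to 754 CPM in controls to 343 to 512 CPM in KO (-0.71 ± 0.10, adjusted p = 0.00271). It was the 1 fall among 20 atypical memory B cell genes tested, of which 2, Zeb2 and Nr4a1, rose (median 0.11). The share called in that list was 15%, against 2.24% of all genes tested. Socs3, a brake on cytokine signalling, fell (-0.72 ± 0.14, adjusted p = 0.0170), and the call was lost without Cre control replicate 2 or 3 (adjusted p up to 0.0547).

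Proliferation lists had no called member, and response programs had 0 or 1 with all 10 libraries. Of 20 G1/S, 20 G2/M and 20 MYC and ribosome genes tested, 0 passed with limma, edgeR or DESeq2, and 1, 0 and 0 had an unadjusted p below 0.05. Of 12 MHC class II and 15 BCL2 family genes 0 passed with limma (2 and 3 at an unadjusted p below 0.05), while DESeq2 called 1 in each list and edgeR 1 in the latter. List medians were -0.00 for G1/S, -0.02 for G2/M and 0.03 for MYC and ribosome genes. Myc itself was at 55.7 to 70.6 CPM in KO and 56.4 to 66.1 in controls. Interferon-stimulated genes also had 0 of 20 called by limma (2 at an unadjusted p below 0.05, 0 with edgeR and 1 with DESeq2), although their median was 0.18 and Ifit3 had a log2 fold change of 0.83 ± 0.20 (adjusted p = 0.0635). Pfkp was the 1 call among 17 glycolysis genes (-0.27 ± 0.06, adjusted p = 0.0329) and Tnfrsf10b among 16 p53 targets (0.74 ± 0.11, adjusted p = 0.00515), and the call for Pfkp held in 2 of the 10 fits that leave out 1 library. Of 20 NF-kB pathway genes and targets Traf1 alone was called (-0.28 ± 0.07, adjusted p = 0.0499). Nr4a1 was the only call among 18 immediate early and handling genes with all 10 libraries, while 5 were called without KO replicate 3. The counts with all 10 libraries stand against 2.24% of all genes tested.

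Among markers of other cells limma called 1 gene with all 10 libraries, and 3 (Cdh5, Pecam1 and Cd2) without KO replicate 3. Of 5 T cell markers DESeq2 called 1 with all 10 libraries. No myeloid (14 tested), dendritic cell (3) or erythroid (2) marker was called by limma, edgeR or DESeq2 (1, 0 and 0 at an unadjusted p below 0.05), and myeloid markers summed to 136 to 288 CPM in KO and 159 to 235 in controls. Lyz2 was at 1.02 to 2.96 CPM in KO and 1.40 to 3.13 in controls. Of 3 stroma and endothelium markers tested, Cdh5 was higher (0.58 ± 0.12, adjusted p = 0.0208), at 2.92 to 4.89 CPM in KO and 1.90 to 2.38 in controls, and its call was lost in 4 of the fits that leave out 1 library. The marker Pdpn had no read, and the list summed to 162 to 226 CPM in KO and 150 to 185 in controls.

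**Figure D4:**
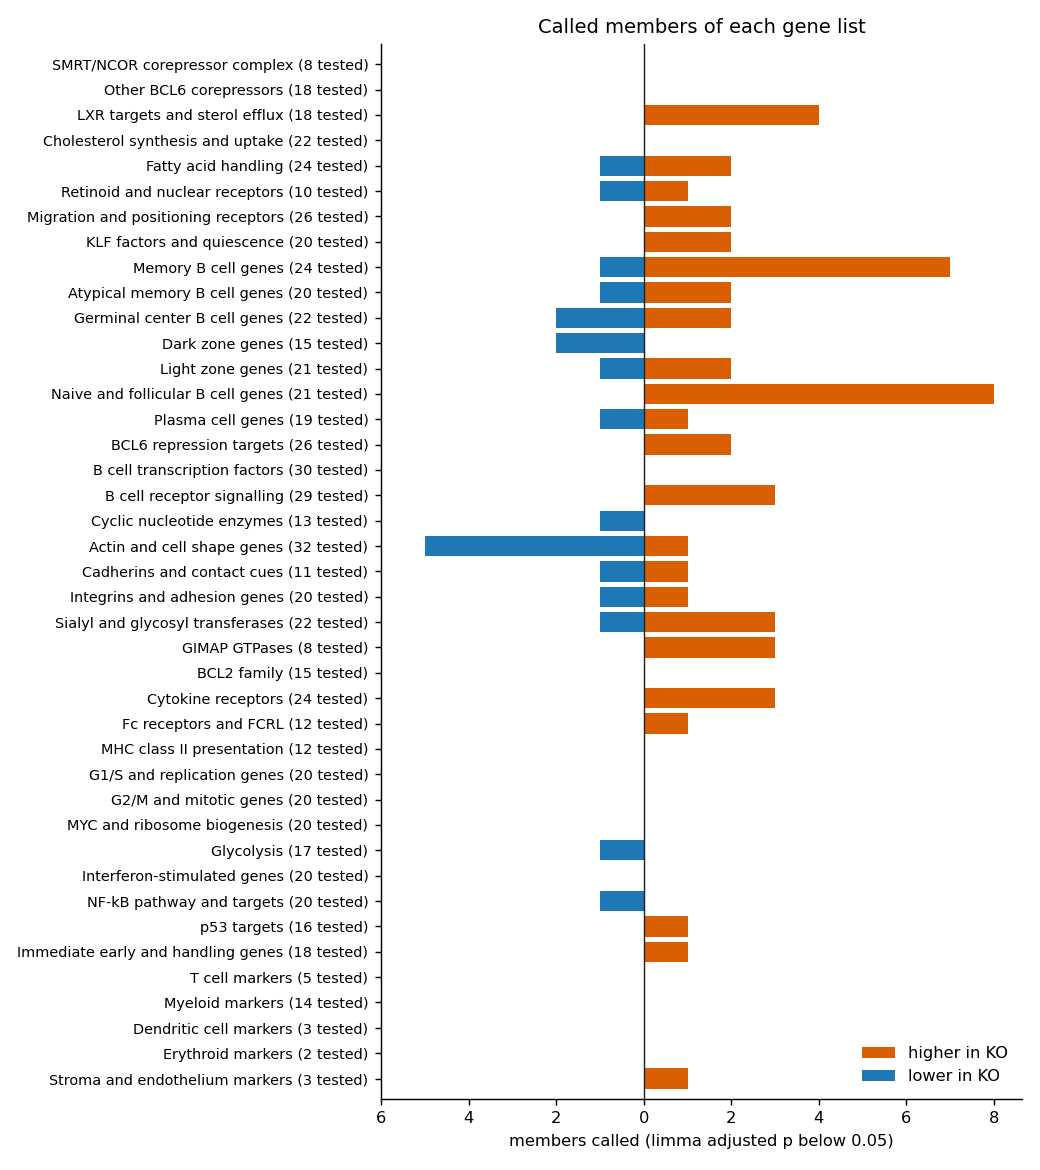
Number of called members (horizontal axis, limma adjusted p below 0.05) higher in KO (right, orange) or lower (left, blue) in each gene list, with the number tested in parentheses. The longest bars are 8 higher naive and follicular genes, 7 higher memory genes and 5 lower actin and cell shape genes, and proliferation lists have none.

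The KO effect was then set beside that of the D370Y allele, a point mutation of Tbl1xr1, in comparisons that share no library with it or with each other. D370Y cells (Cg1Cre(+/-), Tbl1xr1 D370Y/WT, 5 libraries) were compared with WT cells (Cg1Cre(+/-), Tbl1xr1 WT/WT, 3), and the same allele was compared with its own control on the ImuBCL6 background, where Bcl6 is driven from an immunoglobulin promoter (5 against 5). The stranded TruSeq kit is named for KO and Cre control libraries alone. All D370Y libraries had the female and all WT libraries the male pattern, and all ImuBcl6 D370Y libraries the male and all ImuBcl6 libraries the female pattern, so that in those comparisons sex and allele cannot be told apart. D370Y had 399 called genes (3.71% of those tested; 3.07% higher and 0.641% lower) and ImuBcl6 D370Y 816 (7.41%; 3.32% higher and 4.1% lower).

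The KO and D370Y comparisons shared 70 called genes, 29.3% of the KO calls and 17.5% of the D370Y calls, and all 70 had the same direction, 51 higher and 19 lower. With ImuBcl6 D370Y 124 were shared, 51.9% of the KO calls and 15.2% of the others, of which 123 had the same direction; the exception was 1700048O20Rik. Of KO calls tested in the other comparison, 90.8% had the same sign in D370Y, against 64.4% of all genes tested in both, and 92.4% in ImuBcl6 D370Y, against 58.5%. In all 3 comparisons 42 genes were called in 1 direction (33 higher, 9 lower), among them Cd36, Zeb2, St3gal6, Abcg1, Cmah, S1pr1, Gpr183, Cd38, Grap2, Sla, Il10ra, Il10rb and Gimap3 higher, and Pde2a, Palm, Anxa2 and Gcet2 lower. Zeb2 had log2 fold changes of 1.22, 1.04 and 1.21 in KO, D370Y and ImuBcl6 D370Y, and Palm of -1.01, -0.60 and -0.43. Of the 15 largest rises in KO, 14 were positive in D370Y (all but Hbb-bh1) and 11 called there, and 15 were positive in ImuBcl6 D370Y and 10 called. Of the 15 largest falls, 14 were negative in D370Y and 3 called there (Pde2a, Palm and Anxa2), and 14 were negative in ImuBcl6 D370Y and 11 called. Socs3 was the exception in both. Dhrs3 had log2 fold changes of -0.88, -0.30 and -1.31 in KO, D370Y and ImuBcl6 D370Y, and Klf2 of 1.05, 0.79 and 0.18. In the KO comparison alone 88 genes were called, 35 higher and 53 lower, but a call in 1 comparison and not in another does not show a difference.

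**Figure D5:**
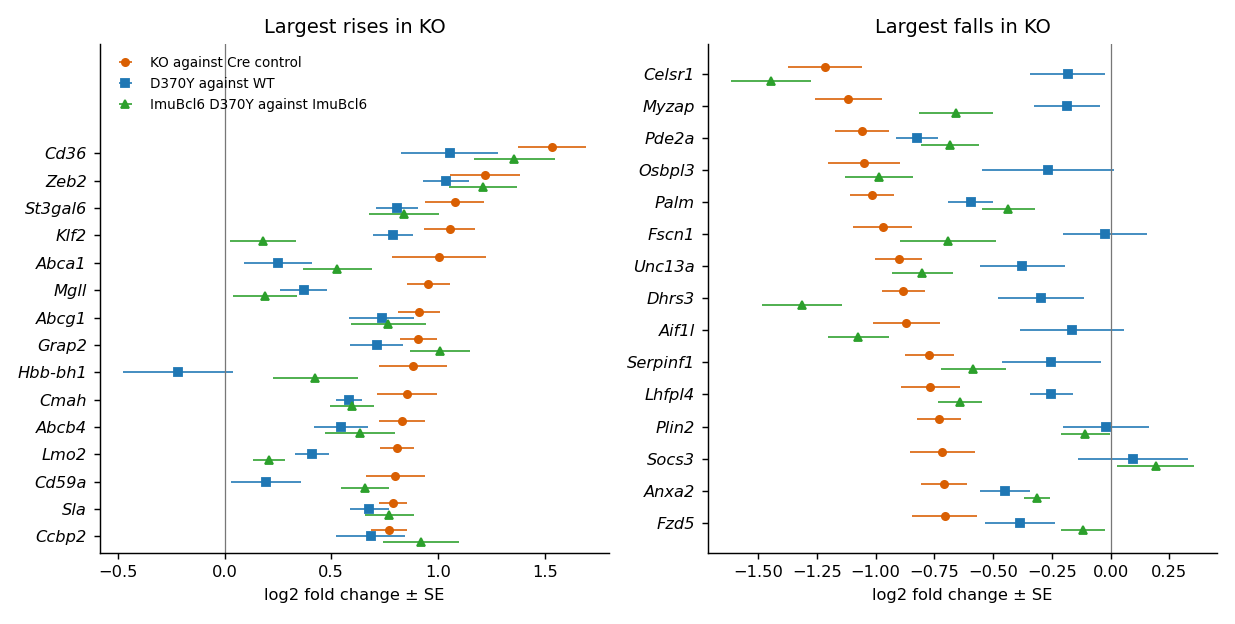
Log2 fold change with its SE (horizontal axis) for the 15 named rises (left) and 15 named falls (right) in KO against Cre control (circles), D370Y against WT (squares) and ImuBcl6 D370Y against ImuBcl6 (triangles). Zeb2 and Sla have similar values in all 3, while Celsr1, Fscn1 and Plin2 are at -0.18, -0.02 and -0.02 in D370Y.

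The differences themselves were tested in fits of 4 groups, and 11 and 18 genes passed. A gene that missed the threshold is not shown to respond alike. Both tests use the same KO and Cre control libraries. Each of the other groups held a single sex pattern, so the sex term below was estimated from KO and Cre control libraries alone. Whether sex acts alike in the other groups was not tested, so the term cannot separate sex from allele there. The KO effect differed from the D370Y effect in 11 of 11065 genes (0.0994%; 836 at an unadjusted p below 0.05), 2 higher (0.0181%) and 9 lower (0.0813%). The higher genes were Uty and Ddx3y, both Y-linked. Plac8, a gene of memory B cells, was at 28.6 to 44.0 CPM in KO and 26.9 to 38.0 in Cre controls, while D370Y cells had 91.2 ± 14.6 CPM (SD, n = 5) and WT cells 32.5 ± 1.08 (SD, n = 3). The 2 effects on Plac8 differed by -1.32 ± 0.20 (adjusted p = 0.00907). Ccnd2, a D-type cyclin of activated B cells, showed the same pattern, at 26.4 to 31.9 and 23.2 to 29.3 CPM in KO and Cre controls and at 56.7 ± 12.4 and 20.01 ± 0.543 (SD) in D370Y and WT (difference -1.30 ± 0.18, adjusted p = 0.00365). S100a10, the partner of annexin A2, also differed (-0.95 ± 0.17, adjusted p = 0.0320). With the sex pattern as a term the adjusted p for each of these 3 genes was 0.184, and 6 genes passed in all. Emp2 was at 1.16 ± 0.536 CPM (SD) in KO and 1.11 ± 0.263 in ImuBcl6 D370Y, and at 6.51 ± 1.48 in Cre controls, 10.8 ± 4.62 in ImuBcl6, 8.58 ± 3.18 in D370Y (n = 5 each) and 8.83 ± 0.696 in WT (n = 3). Its KO and D370Y effects differed by -1.71 ± 0.32 (adjusted p = 0.04998, and 0.184 with the sex term).

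Against ImuBcl6 D370Y the KO effect differed in 18 of 11243 genes (0.16%), 14 higher (0.125%) and 4 lower (0.0356%). Lmo2 rose by 0.81 in KO and had a log2 fold change of 0.21 in ImuBcl6 D370Y (difference 0.60 ± 0.11, adjusted p = 0.0219; 0.0152 with the sex term). Tox, a nuclear factor of lymphocyte differentiation, was at 26.0 to 36.2 CPM in KO and 23.7 to 29.7 in Cre controls, and at 33.5 ± 2.66 (SD) in ImuBcl6 D370Y and 62.1 ± 8.55 in ImuBcl6 cells (n = 5 each). The difference for Tox was 1.0 ± 0.14 (adjusted p = 0.00462; 0.0123 with the sex term). For Ffar2, a receptor for short-chain fatty acids, the KO effect differed from the D370Y effect on both backgrounds, by -0.94 ± 0.16 from D370Y (adjusted p = 0.0288; 0.184 with the sex term) and by -1.25 ± 0.21 from ImuBcl6 D370Y (adjusted p = 0.0117; 0.0123 with the sex term). For Klf2 the difference from ImuBcl6 D370Y was 0.87 (95% interval 0.44 to 1.31) and did not pass (adjusted p = 0.117). For Celsr1 the difference from D370Y was -1.03 (-1.56 to -0.51, adjusted p = 0.144), and its adjusted p was 0.0263 without KO replicate 3. With the sex term the difference for Celsr1 was -0.56 (adjusted p = 0.362).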

How the data were processed

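Per the submitters' processing notes, reads were aligned with STAR to mm10 (no version). Counting tool, strand setting and annotation: not given in the sources used here. RNA was extracted with Trizol and RNeasy and a stranded TruSeq kit was used for these 10 libraries, per the labels' protocols. The authors deposited CPM for 23382 gene symbols per library. All values (100%) lay within 0.01 of a whole read, so reads could be recovered; reads of overlapping, antisense or near-identical genes may be shared.

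CPM were rescaled to each library's sum. log2(CPM + 1), which understates changes of low genes, was fitted with limma 3.58.1 (trend, robust; R 4.3.3) for genes at CPM of at least 1 in 5 or more libraries. For D370Y against WT the filter asked for fewer libraries, as many as the WT group holds. Tests were two-sided, with Benjamini-Hochberg adjustment over all genes tested; values after ± are SE unless marked SD. On the recovered reads edgeR 4.0.16 called 229 genes and DESeq2 1.42.0 456. On simulated data, limma recovered 80% of 1.5-fold and 94% of 2-fold changes in the KO comparison, with 11 false calls. DESeq2 made 32 false calls. In the tests of differences from D370Y and ImuBcl6 D370Y, limma recovered 43% and 54% of 1.5-fold changes. The simulation held no library set apart like KO replicate 3.

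Members and lists were chosen with earlier results of these data known. The rule named Tbl1xr1, Bcl6, the 15 largest called rises and falls at a mean of at least 5 CPM (predicted genes left out), the SMRT/NCOR complex, and for each list at most 4 called members by p, or the 2 with the smallest p where none was called. Other genes, among them Emp2, Cd38, Hhex, Nt5e, Tagln2, Flna and genes given for background, were named after their values were seen. Of 42 lists, the sex chromosome list served only for the sex pattern. Of 721 list genes 14 were found under older symbols (Gcet2 for Gcsam, Fam46c for Tent5c, Beta-s for Hbb-bs and others) and 5 were not used here. Some members of the lists are not reported here. Coordinates and promoters are from RefSeq (GRCm38.p6), to which 98.9% of symbols matched. Alternatives were deposited CPM, TMM scaling, other pseudocounts and filters, all 28 libraries, a replicate block, a sex term, library weights, edgeR, DESeq2 and leaving out each library; a sex term without KO replicate 3 and a Malat1 term were chosen after seeing the data.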

Additional observations from a re-analysis of the deposited data

Results flagged for a closer look

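In 212 groups of 5 libraries (102 genes and 4 library measures, KO and Cre control each), 14 held a library set far from the other 4, by the gap to its neighbour divided by the group's range (above 0.71). Chance flags about 1 in 20 such groups. KO replicate 3 supplied 6: the share of reads on listed genes (64.4%), Malat1 (2535 CPM), Neat1 (46.6 CPM), Kcnq1ot1 (367 CPM), Tbl1xr1 (198 CPM) and Cmah (93.5 CPM). KO replicate 4 was low for Lhfpl4 (9.03 CPM) and high for Itgb7 (46.4 CPM) and Beta-s (49.8 CPM). KO replicate 2 was high for Tle1 (14.7 CPM) and KO replicate 5 low for Nusap1 (100.4 CPM). Cre control replicate 3 was low for Gcet2 (340.0 CPM) and Nt5e (40.3 CPM), and Cre control replicate 5 high for Traf1 (193 CPM).

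The test of the difference between the KO and D370Y effects (log2) passed for S100a10 (-0.95), Efcab7 (-1.19), Plac8 (-1.32), Ccnd2 (-1.30), Ffar2 (-0.94), Uty (5.8), Ddx3y (7.99), Syngr2 (-0.41), Rogdi (-0.52), Emp2 (-1.71) and Capn11 (-1.56). With the sex pattern as a term Uty and Ddx3y remained of these 11. All D370Y libraries had the female and all WT libraries the male pattern, so that allele and sex cannot be told apart there.

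Between the KO and ImuBcl6 D370Y effects it passed for Lypla1 (-0.61), Dgkd (0.29), 6330403A02Rik (1.28), Lmo2 (0.60), Rassf2 (0.34), Cp (0.97), Tox (1.0), 5830416I19Rik (1.47), Ffar2 (-1.25), Tmem123 (-0.49), 1700048O20Rik (1.55), Mid2 (1.53), Atp10b (0.96), Fmnl3 (0.42), Endou (0.45), Capn11 (2.17), Ehd3 (0.62) and Iigp1 (-1.40). Capn11 had no read in 9 of the 10 KO and Cre control libraries, and Iigp1 was at 0.0874 to 0.566 CPM in them.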

How the results depend on the processing

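Of 68 named genes called, 33 kept call and direction under all 25 alternatives apart from the fits within 1 sex pattern, 45 were called in each of the 10 fits that leave out 1 library, and 0 reversed. The count of 239 called genes became 146 with CPM as deposited (50 higher, 96 lower), 456 with DESeq2, 1220 with library weights, 454 with deposited CPM without KO replicate 3, 452 with the Malat1 term and 92 in the Xist-pattern libraries alone. It ran from 150 to 495 when 1 library was left out, the highest without KO replicate 3. The 11 differences from D370Y became 7 with TMM, 19 with a pseudocount of 5 and 6 with the sex term, and ran from 4 to 63 when 1 library was left out (63 without D370Y replicate 5, 37 without KO replicate 3). The 18 differences from ImuBcl6 D370Y became 31 with all 28 libraries in 1 fit and ran from 10 to 27. The cause was not tested. Depth limits genes near 3 reads.

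Replicate numbers did not pair the samples: correlations of same-numbered deviations were -0.17, 0.14, -0.20, 0.00 and 0.22, and 1 of 5 KO libraries matched its own number best. With the replicate block the counts were 113 (112 of the 239), 22 and 8.

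Genes that were not called changed sign as follows (log2); Y-pattern fits hold 1 Cre control library, assumed to vary like the KO libraries. Ncor1 ran from -0.0863 (without KO replicate 3) to 0.2198 when 1 library was left out, and was -0.108 with weights, -0.0744 with deposited CPM without KO replicate 3 and -0.249 in Y-pattern libraries. Gps2 ran from -0.0271 to 0.0329, and was 0.000417 with DESeq2, 0.0540 with weights, 0.0446 with deposited CPM without KO replicate 3, 0.0207 in Y-pattern libraries and 0.0140 with the sex term without KO replicate 3. Hdac3 ran from -0.0106 to 0.0755, and was -0.0405 with deposited CPM, -0.0190 with the sex term and -0.106 in Xist-pattern libraries. Itgax ran from -0.281 to 0.0793, and was 0.169 in Y-pattern libraries and 0.0548 with the sex term without KO replicate 3. Beta-s ran from -0.0615 to 0.849, and was -0.564 in Xist-pattern libraries. Bcl6 (-0.00779) and Top2a (-0.0119) reversed in Y-pattern libraries. Flt3 was -0.00204 with deposited CPM and -0.151 in Xist-pattern libraries.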

Other observations

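Of 23 tested genes within 10 Mb of Tbl1xr1 on chromosome 3, 0 were called by limma, edgeR or DESeq2 (4 at an unadjusted p below 0.05), with a median log2 fold change of 0.03. On the X chromosome 2 of 318 tested genes were called (0.629%), and on chromosome 6 19 of 488 (3.89%), the highest share of any chromosome tested. Called genes made up 1.96% to 2.57% of each of 4 classes of mean level, from genes below 5 CPM to those above 100. Ccbp2, a scavenging chemokine receptor, rose from 18.9 to 25.2 CPM in Cre controls to 34.3 to 43.4 CPM in KO (log2 fold change 0.77 ± 0.08, adjusted p = 0.000721), and Abcb4, a phospholipid transporter, from 4.23 to 6.13 to 8.60 to 11.4 CPM (0.83 ± 0.11, adjusted p = 0.00184).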
